A study of Homo sapiens with 6 samples.

Results

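The aldo-keto reductases described here are 9 genes, AKR1A1, AKR1B1, AKR1B10, AKR1C1, AKR1C2, AKR1C3, AKR1C4, AKR7A2 and AKR7A3, taken by symbol from a table of 60612 human gene rows. Each symbol matched 1 row. The cells were SNU-368, an established line from a hepatocellular carcinoma (HCC), the most common cancer of the liver, and 6 RNA libraries were made from them. Of these, 3 were labelled shCtrl, a control short hairpin RNA, and 3 were labelled shTFAM, a hairpin against TFAM. The TFAM protein coats mitochondrial DNA and starts its transcription, and the comparison asks what its knockdown did to the transcriptome. The labels give no hairpin sequence, time after transduction or clone, and they do not say whether the 3 libraries of a group came from separate cultures. The p-values therefore measure only the spread between these libraries, which may be technical.

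Aldo-keto reductases are soluble enzymes that use NADPH to reduce aldehydes and ketones to alcohols. The AKR1A and AKR1B enzymes handle sugars and lipid aldehydes, the AKR1C enzymes are also hydroxysteroid and prostaglandin reductases, and the AKR7A enzymes reduce aflatoxin dialdehyde and other toxic carbonyls. AKR1B10 and the AKR1C genes are known targets of the transcription factor NRF2, and AKR1B10 is known for being raised in many liver cancers.

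Of the 9 genes, 2 were called higher in shTFAM libraries (AKR1C3 by 6.19-fold and AKR1C1 by 2.78-fold), 1 was called lower (AKR1B10 by 2.85-fold), 4 were tested without a call, and 2 (AKR1C2 and AKR1C4) were too low to test. A call means an adjusted p of at most 0.05 in edgeR's quasi-likelihood test with Benjamini-Hochberg adjustment over the 14708 rows whose mean FPKM (fragments scaled to transcript length and library depth) reached 0.5. By the same rule 17.9% of all tested rows were called, 11.3% higher and 6.59% lower. AKR1C1 and AKR1C3 had shCtrl means under 0.5 FPKM and passed this minimum through the shTFAM libraries, and AKR7A3, at 0.501 FPKM, lay just inside it and passed through the shCtrl libraries. Counts over the tested genes are thus a description only. With no minimum, AKR1C3 (adjusted p = 0.00295), AKR1C1 (0.0206) and AKR1B10 (0.0223) were called by edgeR as well.

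The libraries held 43286024 to 61058282 counts. At these depths 3 counts, used here as the floor, corresponded to 0.0517 to 0.0673 CPM (counts relative to the library total, scaled with TMM factors). TFAM itself (ENSG00000108064, chromosome 10, 58385345 to 58399220, plus strand) stood at 81.7, 75.8 and 89.2 CPM in shCtrl and 63.4, 64.7 and 56.4 CPM in shTFAM libraries. Its groups did not overlap, and edgeR gave a log2 fold change of -0.42 (SE 0.107, adjusted p = 0.0377). That call was lost when any 1 of the 6 libraries was left out (adjusted p = 0.0653 to 0.0970) and with no FPKM minimum (0.0644). The share of counts from mitochondrial DNA was 10.1 to 14.2% in shCtrl and 7.91 to 10.7% in shTFAM libraries. The first principal component (46.0% of variance) separated the groups, and the second (16.6%) set shCtrl 3 apart from the other shCtrl libraries. The results for the called genes are given below with and without shCtrl 3.

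The liver label was checked against markers. Of 18 hepatocyte markers, 12, among them ALB, APOA1, TTR and AFP, had 0 counts in all 6 libraries, and only CEBPA, a liver and adipose transcription factor, passed the minimum. CEBPA fell from 27.2 ± 4.80 to 13.6 ± 0.710 CPM (SD, n = 3 per group, edgeR adjusted p = 0.00867). The summed hepatocyte marker level was 7.83 to 11.4 FPKM in shCtrl and 4.25 to 4.92 FPKM in shTFAM libraries. CEBPA made up nearly all of it, averaging 9.11 FPKM in shCtrl and 4.30 FPKM in shTFAM libraries. Of 12 markers of other liver cells, 6 were tested and 3 were called higher, the pericyte marker PDGFRB (log2 fold change 1.69, edgeR adjusted p = 0.000721), the matrix proteoglycan DCN (2.95, adjusted p = 0.00276) and the macrophage lysosomal marker CD68 (1.43, adjusted p = 0.00892). DCN passed the minimum through the shTFAM libraries, at 0.201 FPKM in shCtrl and 1.48 FPKM in shTFAM. The other 3 were not called, COL1A1 at a log2 fold change of 0.091 (edgeR adjusted p = 0.779), LUM at 1.17 (0.0924) and ACTA2 at -0.68 (0.226). COL1A1 alone made up 29.4 FPKM in shCtrl and 29.5 FPKM in shTFAM libraries of the list's total. That summed level was 31.6 to 42.9 FPKM in shCtrl and 49.7 to 58.6 FPKM in shTFAM libraries, while PTPRC, CD163 and CD3E, which mark leukocytes, had 0 counts throughout. The part of these changes in the aldo-keto reductase results was not tested. In bulk RNA, a change in how many cells express a gene and a change in RNA per cell cannot be told apart.

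The 4 AKR1C genes lie together on chromosome 10 and are alike in sequence, AKR1C1 and AKR1C2 being near-identical. How well their reads can be kept apart therefore matters for the AKR1C values. Below are coding bases 103 to 162 (counted from 1 at the A of the start codon, 5′ to 3′), the 60-base stretch in which AKR1C1 and AKR1C2 differ most, from GENCODE 29 transcripts on GRCh38. Capitals mark the 16 positions at which the 4 genes are not all the same.
AKR1C1: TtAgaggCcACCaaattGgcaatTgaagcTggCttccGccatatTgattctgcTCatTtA
AKR1C2: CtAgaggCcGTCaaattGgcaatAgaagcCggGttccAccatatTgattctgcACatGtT
AKR1C3: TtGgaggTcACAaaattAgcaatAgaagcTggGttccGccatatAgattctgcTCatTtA
AKR1C4: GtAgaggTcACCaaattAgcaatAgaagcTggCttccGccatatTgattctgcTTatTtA

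Within this stretch AKR1C2 differed from AKR1C1 at 10 bases, AKR1C3 at 7 and AKR1C4 at 5. Over the whole coding sequence of 969 bases, AKR1C1 and AKR1C2 were 98.0% identical, with an exact shared run of 186 bases. AKR1C3 was 91.4% identical to AKR1C1 and 91.0% to AKR1C2, and AKR1C4 was 88.8% identical to AKR1C1. The labels give reads of 150 bases from each end of a fragment. Of all 150-base windows of the coding sequence, 4.63% in AKR1C1, 7.32% in AKR1C2 and 2.68% in AKR1C3 were also found in a transcript of another aldo-keto reductase gene, and none in AKR1C4. For windows of 50 bases the shares were 54.3%, 57.1%, 23.0% and 17.6% in the same order. The transcripts used were 6705 bases long for AKR1C1, 3756 for AKR1C2, 1807 for AKR1C3 and 1414 for AKR1C4. Windows outside their coding sequence, from which reads also come, were not assessed. How the authors' counting treated reads that match several genes was not stated. The AKR1C rows are accordingly also given as sums.

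AKR1B10 has a neighbour of the same kind in AKR1B15, a related reductase just downstream of it on chromosome 7. The next lines show the 60 aligned coding bases in which these 2 genes differ most (bases 878 to 937 of AKR1B10 and 962 to 1021 of AKR1B15, GENCODE 29), with the 11 differing positions in capitals.
AKR1B10: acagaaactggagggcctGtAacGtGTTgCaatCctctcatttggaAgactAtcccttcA
AKR1B15: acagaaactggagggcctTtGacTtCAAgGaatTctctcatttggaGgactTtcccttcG

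Their coding sequences, of 948 bases in AKR1B10 and 1032 in AKR1B15, were 85.9% identical when gap positions counted as differences. The identical bases numbered 886, with an exact run of 116 bases. No 150-base window of AKR1B10 was shared with another family transcript, against 28.5% of its 50-base windows. AKR1B10 and AKR1B1 were 76.1% identical.

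AKR1C1, AKR1C2 and AKR1C3 share bases upstream of their starts. Whether these bases play a part in any change described here was not tested. The following 30-base runs, 5′ to 3′ on the strand of each gene, are from the RefSeq promoter table on GRCh38.p14. Capitals mark ATTGG, which is CCAAT on the other strand. It began 77, 81 and 86 bases before the RefSeq start of AKR1C1, AKR1C2 and AKR1C3.
AKR1C1, chr10:4963326-4963355, plus strand: ctctcacatgccATTGGttaaccagcagac
AKR1C2, chr10:5003921-5003950, minus strand: ctctcacatgccATTGGttaaccagcagac
AKR1C3, chr10:5094316-5094345, plus strand: ctcctacatgccATTGGttaaccatcagtc
AKR1C4, chr10:5196736-5196765, plus strand: ctcctacatgccattgattagccccaggga

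The AKR1C1 and AKR1C2 runs were the same at 30 of 30 bases. The AKR1C3 run matched at 26 bases, and that of AKR1C4, its best ungapped match, at 20. Over the 150 bases before the start, AKR1C1 was 94.2% identical to AKR1C2, 67.3% to AKR1C3 and 54.8% to AKR1C4. AKR1C3 has 2 windows in the table, and the later one was used for these runs. In the table, 8 of the 9 genes had a window, AKR1B10 having none. Windows of 250 bases before the start were searched on both strands for CCAAT, for TGACNNNGC (the core of the antioxidant response element read by NRF2) and for ACGTG (the core of the hypoxia element). TGACNNNGC can contain ACGTG, so matches to both in 1 window may be the same bases. CCAAT was found for AKR1B1 (in 1 of its 2 windows), AKR1C1, AKR1C2 and AKR1C3. TGACNNNGC was found for AKR7A2 alone, and ACGTG for AKR1A1 and AKR7A2. Of all 35116 windows in the table, 32.0% held CCAAT, 10.9% TGACNNNGC and 18.5% ACGTG. A match is a description of letters, and its absence says only that these letters are not in this window.

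AKR1C3 was the member with the largest difference. It encodes the type 5 17-beta-hydroxysteroid dehydrogenase, which makes testosterone from androstenedione and also acts as prostaglandin F synthase. The row (ENSG00000196139, chromosome 10, 5035354 to 5107680, plus strand) held 100, 82 and 54 counts in the shCtrl libraries and 515, 456 and 538 in the shTFAM libraries. These were 2.24, 1.59 and 1.09 CPM against 11.1, 10.1 and 9.27 CPM, so the lowest shTFAM library lay far above the highest shCtrl library. The means were 1.64 ± 0.579 and 10.2 ± 0.904 CPM (SD, n = 3 per group), a log2 fold change of 2.63 (SE 0.287, edgeR adjusted p = 0.00317). Without shCtrl 3 the log2 fold change was 2.40 (adjusted p = 0.00715), and the call held in each alternative that tested this gene.

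AKR1C1, a 20-alpha-hydroxysteroid dehydrogenase that inactivates progesterone, also rose. Its row (ENSG00000187134, chromosome 10, 4963253 to 4983283, plus strand) held 172, 154 and 212 counts in shCtrl and 551, 556 and 392 in shTFAM libraries, or 3.86, 2.99 and 4.28 CPM against 11.8, 12.3 and 6.75 CPM. The groups did not overlap, but shTFAM 3 lay well below the other shTFAM libraries. The means were 3.71 ± 0.658 and 10.3 ± 3.10 CPM (SD, n = 3 per group), a log2 fold change of 1.48 (SE 0.280, edgeR adjusted p = 0.0153). Without shCtrl 3 it was 1.58 (adjusted p = 0.0339) and without shTFAM 3 it was 1.71 (0.00995). The call was lost by a small margin without shCtrl 1 (adjusted p = 0.0515), shCtrl 2 (0.0550) or shTFAM 2 (0.0510), and with limma on log2(FPKM + 1) (0.0523) or log2(FPKM + 0.1) (0.0527).

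AKR1C2, a 3-alpha-hydroxysteroid dehydrogenase that inactivates dihydrotestosterone, was low in both groups. Its row (ENSG00000151632, chromosome 10, 4987400 to 5017955, minus strand) held 11, 36 and 27 counts in shCtrl and 45, 24 and 14 in shTFAM libraries. Scaled to CPM, the groups overlapped, shTFAM 1 being the highest and shTFAM 3 the lowest. At a mean of 0.0690 FPKM it was not tested, and in the fit with no minimum its log2 fold change was 0.21 (edgeR adjusted p = 0.886). AKR1C4, the liver-specific member that acts in bile acid synthesis (ENSG00000198610, chromosome 10, 5195462 to 5218949, plus strand), had 3 counts in shTFAM 2 and 0 in the other 5 libraries. That is at or under the floor in every library, so no fold is given.

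**Figure D1:**
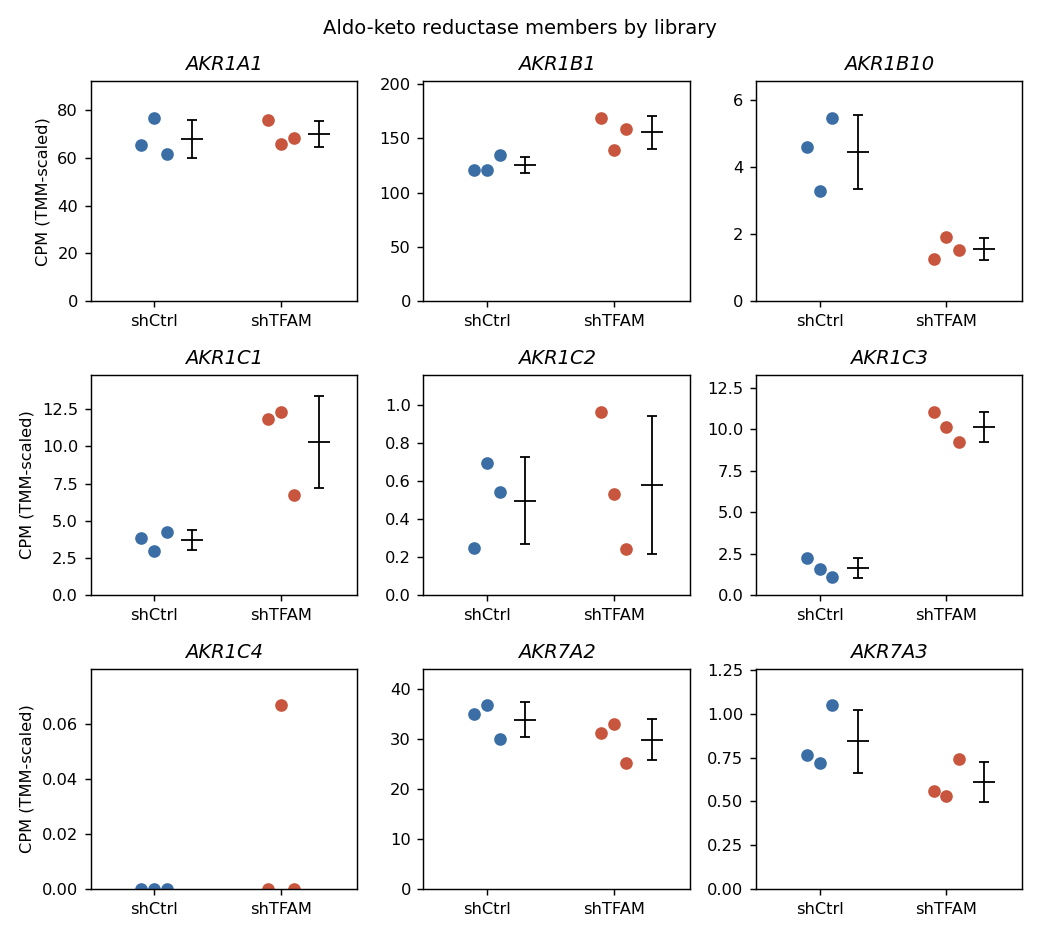
Level of each of the 9 genes in each library in CPM scaled with TMM factors, shCtrl in blue and shTFAM in red, each panel with its own axis from 0, and bars giving the mean ± SD of 3 libraries (none drawn for AKR1C4). AKR1C1 and AKR1C3 lie higher and AKR1B10 lower in all shTFAM libraries, and AKR1C4 has 3 counts in shTFAM 2 and 0 elsewhere.

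A sum of the 4 AKR1C rows does not depend on how reads were divided among them, provided that each shared read was counted in 1 row. Whether it was is not known. The sum was 283, 272 and 293 counts in shCtrl and 1111, 1039 and 944 in shTFAM libraries, or 6.35, 5.27 and 5.91 CPM against 23.9, 23.1 and 16.3 CPM. The coefficient of variation of the sum was 9.24% in shCtrl libraries, against 17.8% for AKR1C1 and 35.3% for AKR1C3 alone. In shTFAM libraries it was 19.9%, between the 30.0% of AKR1C1 and the 8.91% of AKR1C3. The sum rose by 1.85 on the log2 scale (SE 0.194, edgeR adjusted p = 0.00292), from 5.84 ± 0.540 to 21.1 ± 4.19 CPM (SD, n = 3 per group), or 3.60-fold. It was 1.85 without shCtrl 3 (adjusted p = 0.0104). The sum of AKR1C1 with its closest copy AKR1C2 rose from 4.20 ± 0.574 to 10.9 ± 3.38 CPM (SD, n = 3 per group, log2 fold change 1.37, SE 0.273, edgeR adjusted p = 0.0180). That call was lost without shCtrl 1 (adjusted p = 0.0610), shCtrl 2 (0.0627), shTFAM 1 (0.0530) or shTFAM 2 (0.0576).

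The makeup of the AKR1C counts differed too. AKR1C3 took 35.3, 30.1 and 18.4% of the AKR1C counts in shCtrl and 46.4, 43.9 and 57.0% in shTFAM libraries, without overlap. Its mean share was 28.0 ± 8.66% against 49.1 ± 6.96% (SD, n = 3 per group), and the two-sided exact permutation p was 0.1, the smallest that 3 against 3 libraries can give. AKR1C1 took 63.25 ± 8.15% against 48.2 ± 6.11% (exact permutation p = 0.1), and AKR1C2 8.78 ± 4.69% against 2.61 ± 1.31% (exact permutation p = 0.2), with SD and n = 3 per group. Of the FPKM, which are per length, AKR1C3 made up 44.6% of the AKR1C total in shCtrl and 67.6% in shTFAM libraries.

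**Figure D2:**
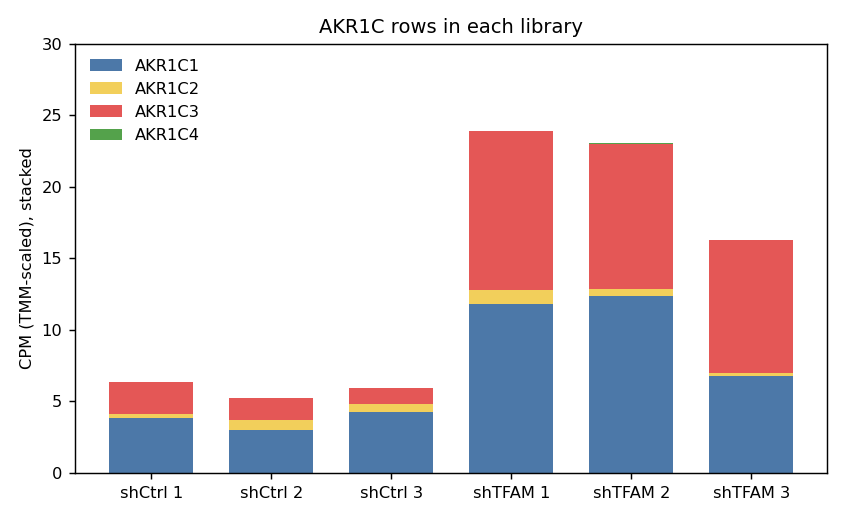
Stacked level of the 4 AKR1C rows in each of the 6 libraries, in CPM scaled with TMM factors. The stacks reach 5.27 to 6.35 CPM in shCtrl and 16.3 to 23.9 CPM in shTFAM libraries, the AKR1C3 segment grows most, AKR1C2 is thin and AKR1C4 too low to be seen.

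AKR1B10, an efficient retinal and lipid aldehyde reductase, changed in the other direction. Its row (ENSG00000198074, chromosome 7, 134527567 to 134541412, plus strand) held 205, 169 and 271 counts in shCtrl and 58, 86 and 88 in shTFAM libraries. These were 4.60, 3.28 and 5.47 CPM against 1.25, 1.91 and 1.52 CPM, and every shTFAM library lay below every shCtrl library. The means were 4.45 ± 1.10 and 1.56 ± 0.333 CPM (SD, n = 3 per group), a log2 fold change of -1.51 (SE 0.286, edgeR adjusted p = 0.0152). It was -1.35 without shCtrl 3 (adjusted p = 0.0377). The call was lost without shTFAM 3 (-1.49, adjusted p = 0.0521) and with both libraries numbered 3 left out (-1.32, adjusted p = 0.0760).

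Its neighbour AKR1B15 (chromosome 7, 134549110 to 134579875, plus strand), which is not among the 9 genes, held 131, 162 and 54 counts in shCtrl and 104, 132 and 87 in shTFAM libraries. The groups overlapped, with shCtrl 3 the lowest library, and edgeR gave a log2 fold change of -0.11 (SE 0.448, adjusted p = 0.893). In shCtrl 3 AKR1B15 was lowest and AKR1B10 highest. The sum of both rows was 336, 331 and 325 counts in shCtrl and 162, 218 and 175 in shTFAM libraries. Scaled, the sum was 7.54, 6.42 and 6.55 CPM against 3.48, 4.84 and 3.01 CPM. Its coefficient of variation in shCtrl libraries was 8.93%, against 24.8% for AKR1B10 and 47.3% for AKR1B15. In shTFAM libraries the sum was no more even than AKR1B10 alone (25.1% against 21.4%). This sum was formed after the data were seen. It fell from 6.84 ± 0.610 to 3.78 ± 0.948 CPM (SD, n = 3 per group, log2 fold change -0.86, SE 0.228, edgeR adjusted p = 0.0424), 1.81-fold lower in shTFAM. The call was lost without any 1 library other than shTFAM 2 (adjusted p = 0.0751 to 0.116) and without both libraries numbered 3 (adjusted p = 0.1196).

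AKR1B1, aldose reductase, the enzyme that turns glucose into sorbitol at the head of the polyol pathway, was the most abundant of the 9 genes in every library. Its row (ENSG00000085662, chromosome 7, 134442356 to 134459284, minus strand) held 121, 120.8 and 134 CPM in shCtrl and 169, 139 and 158 CPM in shTFAM libraries. The groups did not overlap, but shCtrl 3 and shTFAM 2 were close. The log2 fold change was 0.31 (SE 0.105) and missed the threshold, with an edgeR adjusted p of 0.0847. No alternative called it (log2 fold change 0.18 to 0.38, adjusted p = 0.0727 to 0.246). In all, 4 of the 7 tested genes had groups that did not overlap (AKR1B1, AKR1B10, AKR1C1 and AKR1C3), where 42.2% of all tested rows had.

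AKR1A1, the general aldehyde reductase that also acts on glucuronate, showed no call. Its row (ENSG00000117448, chromosome 1, 45550543 to 45570049, plus strand) stood at 65.5, 76.7 and 61.5 CPM in shCtrl and 75.8, 65.7 and 68.0 CPM in shTFAM libraries. The groups overlapped throughout. edgeR gave a log2 fold change of 0.041 (SE 0.118, adjusted p = 0.838), and its sign turned under other scalings.

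The AKR7A genes showed no call either. AKR7A2, which reduces succinic semialdehyde, has its row (ENSG00000053371) on chromosome 1 from 19303965 to 19312146, minus strand. It stood at 34.9, 36.7 and 29.9 CPM in shCtrl and 31.2, 33.0 and 25.2 CPM in shTFAM libraries, with overlap (log2 fold change -0.18, SE 0.142, edgeR adjusted p = 0.401). AKR7A3, an aflatoxin aldehyde reductase (ENSG00000162482, chromosome 1, 19282573 to 19288770, minus strand), was far lower, with 34, 37 and 52 counts in shCtrl and 26, 24 and 43 in shTFAM libraries. Its groups overlapped through shTFAM 3 (log2 fold change -0.46, SE 0.332, edgeR adjusted p = 0.365). AKR7L, a neighbouring copy that was 95.5% identical to AKR7A3 in coding sequence, held 55, 64 and 128 counts in shCtrl and 54, 48 and 49 in shTFAM libraries and lay below the minimum. The sum of AKR7A2, AKR7A3 and AKR7L had a log2 fold change of -0.21 (SE 0.130, edgeR adjusted p = 0.294), from 36.3 ± 2.61 to 31.4 ± 4.11 CPM (SD, n = 3 per group).

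**Figure D3:**
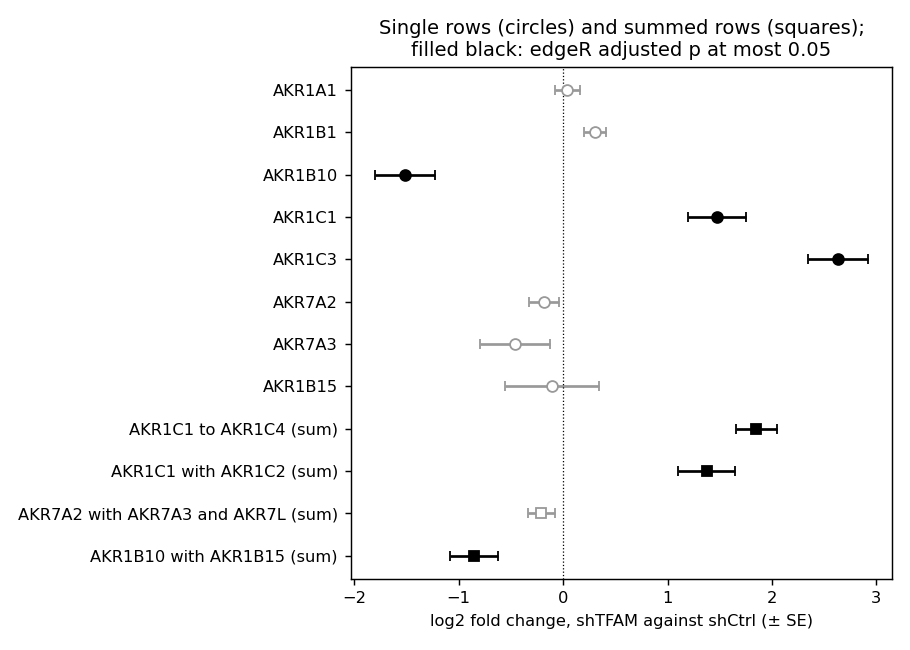
log2 fold change of shTFAM against shCtrl with its SE for the 7 tested genes, for AKR1B15 and for 4 sums of related rows. AKR1C1, AKR1C3 and their sums lie to the right of 0, AKR1B10 and its sum with AKR1B15 to the left, all in black for an edgeR adjusted p of at most 0.05, and the other points are grey.

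On the FPKM scale, which allows genes to be compared, AKR1B1 led with 29.8 ± 2.03 in shCtrl and 34.9 ± 3.74 in shTFAM libraries (SD, n = 3 per group here and below). AKR1A1 followed with 18.9 ± 2.01 and 18.4 ± 1.80 FPKM, and AKR7A2 with 16.5 ± 1.61 and 13.8 ± 2.22 FPKM. In shCtrl libraries the ranges of AKR1A1 and AKR7A2 overlapped, so their order was not clear there. AKR1B10 came next in shCtrl libraries at 2.18 ± 0.558 FPKM, then AKR7A3 at 0.598 ± 0.136 FPKM. AKR1C1 (0.365 ± 0.0680 FPKM) and AKR1C3 (0.356 ± 0.127 FPKM) could not be ordered in shCtrl libraries. In shTFAM libraries AKR1C3 was the fourth at 2.12 ± 0.251 FPKM, above AKR1C1 at 0.970 ± 0.313 and AKR1B10 at 0.717 ± 0.155 FPKM, whose ranges overlapped, and AKR7A3 at 0.403 ± 0.0670 FPKM. AKR1C2, at 0.0650 ± 0.0311 and 0.0729 ± 0.0488 FPKM, stood below all of these in both groups.

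The summed level of the 9 genes was 68.8 ± 1.11 FPKM in shCtrl and 71.4 ± 6.46 FPKM in shTFAM libraries (SD, n = 3 per group, exact permutation p = 0.8), with overlapping ranges. Within that total, the AKR1C rows went from 1.14 ± 0.157% to 4.43 ± 0.589% of FPKM and AKR1B10 from 3.17 ± 0.852% to 1.02 ± 0.271% (SD, n = 3 per group, exact permutation p = 0.1 for each). In counts, which weigh long transcripts more, the AKR1C rows went from 2.46 ± 0.279% to 7.57 ± 1.40% and AKR1B10 from 1.87 ± 0.482% to 0.567 ± 0.156% (SD, n = 3 per group, exact permutation p = 0.1 for each). AKR1B1 made up 43.4 ± 3.38% and 49.0 ± 2.98% of FPKM (SD, n = 3 per group, exact permutation p = 0.2). The called members were thus minor parts of the family's RNA in both groups.

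Of 17 further aldo-keto reductase names, 16 had a row, 2 were tested and none was called by edgeR (0 at an unadjusted p under 0.05) or by DESeq2 or limma. Besides AKR1B15, KCNAB2, the beta subunit of voltage-gated potassium channels, had a log2 fold change of -0.14 (SE 0.264, edgeR adjusted p = 0.748). The bile acid and steroid 5-beta-reductase AKR1D1 had 4 counts in shTFAM 1 and 0 elsewhere, and 8 of the 16 rows had 0 counts in all libraries.

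The NRF2 pathway and its classical targets outside the family moved in both directions. Of 30 listed genes, 27 were tested, and edgeR called 6 higher and 2 lower. Over all tested rows it called 11.3% higher and 6.59% lower. The list's median log2 fold change was 0.23, against -0.015 over all tested rows. BACH1, the repressor that competes with NRF2 at its sites, rose from 28.97 ± 1.89 to 67.6 ± 7.44 CPM (SD, n = 3 per group, log2 fold change 1.22, edgeR adjusted p = 0.00235). MAFF, a small MAF partner of these factors, rose as well (log2 fold change 1.77, adjusted p = 0.0247). ABCC3, an exporter of organic anions and conjugates, went from 26.8 ± 14.0 to 104.6 ± 8.99 CPM (SD, n = 3 per group, log2 fold change 1.97, edgeR adjusted p = 0.0214). GCLC, the catalytic subunit for glutathione synthesis, fell (log2 fold change -0.59, edgeR adjusted p = 0.0138). The BACH1 call held in each alternative, while ABCC3 was lost without shTFAM 2 or shTFAM 3, MAFF without shCtrl 1, shTFAM 2 or shTFAM 3, and GCLC without shCtrl 2. Some genes were chosen after their values were seen. NFE2L2, which encodes NRF2 (log2 fold change 0.28, edgeR adjusted p = 0.126), and the targets NQO1 (-0.21, adjusted p = 0.351) and HMOX1 (0.73, adjusted p = 0.0729) were not called. The targets GCLM (0.55, edgeR adjusted p = 0.0404) and FTH1 (0.68, adjusted p = 0.0249) were called higher. MAFK, another small MAF partner, was called higher too (1.44, edgeR adjusted p = 0.0249). The target SRXN1 was called lower (-0.50, edgeR adjusted p = 0.0282). GCLM lost its call without any 1 library other than shTFAM 1, and FTH1 without shCtrl 2, shCtrl 3, shTFAM 1 or shTFAM 3, while HMOX1 was called with DESeq2. SRXN1 lost its call without any 1 library other than shTFAM 1, with both libraries numbered 3 left out and with no abundance trend. MAFK lost its call at least without shCtrl 1 or shCtrl 2. The list's higher calls numbered 2 without shTFAM 3 and 3 without shCtrl 1, shCtrl 2 or shTFAM 2, and its lower calls 0 without shCtrl 2.

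Enzymes that supply NADPH, the cofactor of these reductases, gave no call by edgeR in either direction among 11 tested genes (median log2 fold change -0.045), with 3 at an unadjusted p under 0.05 and no call by DESeq2 or limma. Over all 14708 tested rows, 5116 had an unadjusted edgeR p under 0.05. There was 1 lower call with edgeR at a minimum of 5 FPKM, with upper quartile factors and with totals outside mitochondrial DNA, and 1 call in each direction with both libraries numbered 3 left out. The most abundant were the pentose phosphate enzymes TKT (log2 fold change 0.28, adjusted p = 0.102) and TALDO1 (0.24, adjusted p = 0.101). In the polyol and fructose list, which follows AKR1B1, 5 of 7 genes were tested and none was called by edgeR (median -0.11), with 1 at an unadjusted p under 0.05. There the glyoxalases GLO1 (log2 fold change -0.24, edgeR adjusted p = 0.192) and HAGH (0.60, adjusted p = 0.0542) were the most abundant. The tested genes of the polyol and fructose steps were SORD (log2 fold change -0.11, edgeR adjusted p = 0.707), KHK (-0.12, adjusted p = 0.652) and TKFC (0.036, adjusted p = 0.904). HAGH was called with DESeq2, with limma-voom and without shCtrl 1.

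Calls among other enzymes that act on aldehydes and ketones are given beside the 17.9% of all tested rows called by edgeR. Of 18 aldehyde dehydrogenases, which oxidise what aldo-keto reductases reduce, 13 were tested and 2 were called higher (median log2 fold change 0.061). These were mitochondrial ALDH2 (log2 fold change 0.74, edgeR adjusted p = 0.0357) and ALDH3A1 (0.82, adjusted p = 0.0377). ALDH2 lost its call without shCtrl 2 or any 1 shTFAM library, and ALDH3A1 without any 1 library other than shCtrl 3. Of 7 alcohol dehydrogenases, ADH5 alone was tested (log2 fold change 0.010, edgeR adjusted p = 0.964) and its sign turned under other scalings, while the other 6 lay below 0.1 FPKM. Of 18 short-chain carbonyl reductases, 15 were tested, 1 was called higher and 1 lower (median 0.041). The retinal reductase DHRS3 rose from 13.9 ± 3.99 to 45.3 ± 11.6 CPM (SD, n = 3 per group, log2 fold change 1.71, edgeR adjusted p = 0.00880), and DCXR, the xylulose reductase, was called lower (-0.56, adjusted p = 0.0468) but lost that call when any 1 library was left out. The lower calls numbered 2 with upper quartile factors and 3 with totals outside mitochondrial DNA or with DESeq2, and the higher calls 2 with DESeq2, without shTFAM 3 or with both libraries numbered 3 left out.

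The substrates of the AKR1C enzymes come from steroid and prostaglandin metabolism. Of 24 steroid genes, 11 were tested, 1 was called higher and 1 lower (median log2 fold change 0.10), where 17.9% of all tested rows were called. HSD3B7, an enzyme of bile acid synthesis, rose (log2 fold change 0.93, edgeR adjusted p = 0.0208) and HSD17B6 fell (-1.21, adjusted p = 0.0337). HSD3B7 lost its call without shCtrl 1, shCtrl 2 or shTFAM 2, and HSD17B6 without any 1 library other than shCtrl 3. HSD17B6 passed the minimum through the shCtrl libraries (0.914 FPKM, against 0.374 FPKM in shTFAM), and with no minimum it was not called (adjusted p = 0.0608). Of 14 prostaglandin genes, 8 were tested, 2 were called higher and 0 lower by edgeR (median log2 fold change 0.41), with 6 at an unadjusted p under 0.05. Over all 14708 tested rows, 5116 had an unadjusted edgeR p under 0.05 and 11.3% were called higher. DESeq2 called 4 higher and 1 lower, and edgeR called 1 lower with library totals, upper quartile factors, totals outside mitochondrial DNA, a minimum of 5 FPKM or without shCtrl 3. PTGES, the inducible prostaglandin E synthase, rose from 10.9 ± 1.18 to 25.7 ± 4.98 CPM (SD, n = 3 per group, log2 fold change 1.24, edgeR adjusted p = 0.00648) and kept its call in each alternative. PTGS1, cyclooxygenase 1, had a log2 fold change of 2.18 (edgeR adjusted p = 0.0294) with a wide spread, 7.65 ± 0.459 against 34.6 ± 26.3 CPM (SD, n = 3 per group), and lost its call without any 1 shCtrl library or shTFAM 2.

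**Figure D4:**
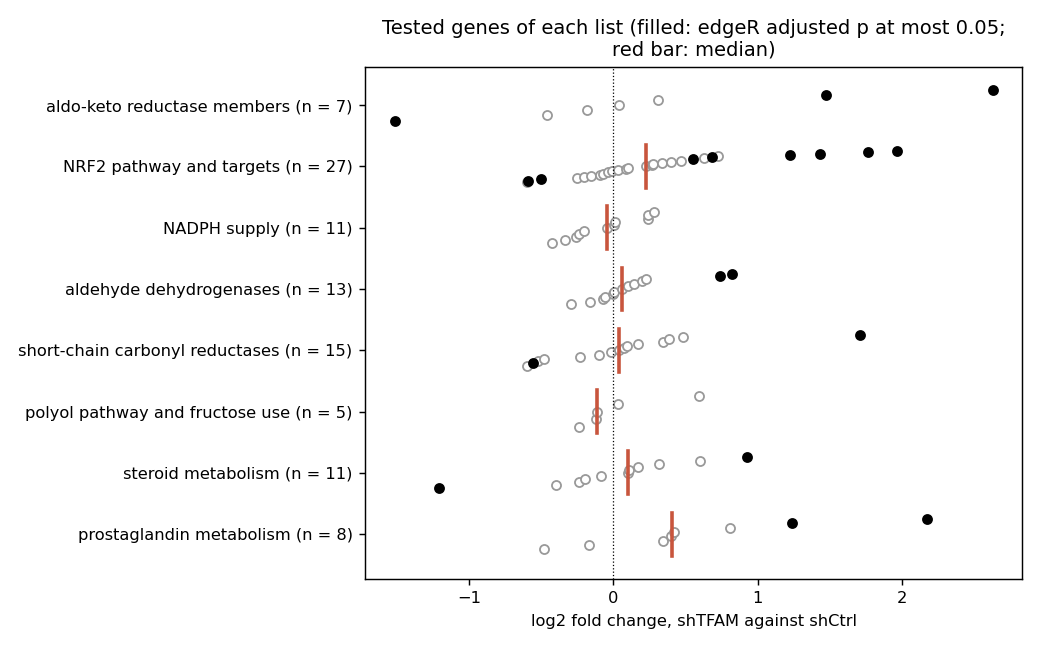
log2 fold change of shTFAM against shCtrl for each tested gene of the family and of 7 lists around it, filled where the edgeR adjusted p was at most 0.05 and with a red bar at each list's median (none drawn for the 9 members, of which 7 were tested). The family spans from -1.51 for AKR1B10 to 2.63 for AKR1C3, the NADPH supply list has no filled point, and the prostaglandin median is 0.41.

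Among 6594 other rows averaging 5 FPKM or more, those whose log2 CPM followed AKR1B1 most closely over the 6 libraries were NENF (Pearson r = 0.991), H2AX (0.987) and SLC12A8 (0.984). The 6 points share their libraries and fall in 2 groups, so r is a description. Of these 3 rows, SLC12A8 alone was called (log2 fold change 1.79, edgeR adjusted p = 0.0109).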

How the data were processed

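The 9 genes and all gene lists were chosen with earlier results of these data known. Poly(A) RNA was made into dUTP-marked libraries and sequenced as paired reads, per the labels' protocols. Per the submitters' processing notes, the tools were StringTie 1.3.4d, HISAT2 2.0.4, Bowtie 0.12.2 and cutadapt 1.9, and hg38 and mm8 are both listed as builds, without the role of any. Since the rows are human genes, their coordinates are read as hg38. The counting tool, its strand setting and its annotation are not given in the sources used here, so reads of overlapping or near-identical genes may be divided in ways that cannot be seen. The authors deposited whole-number read counts per gene and FPKM, a level scaled to gene length and library depth, both named in its headers.

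The treatment label set the groups, and each column was tied to its library by title. Libraries were numbered 1 to 3 within each group in the order of the samples, so equal numbers pair nothing. Rows whose mean FPKM reached 0.5 were kept (14708, holding 99.4 to 99.5% of counts). Counts were scaled with TMM factors (0.951 to 1.04) and tested with edgeR 4.0.16 (quasi-likelihood, two-sided, Benjamini-Hochberg over all tested rows, threshold 0.05, common coefficient of biological variation 0.251) in R 4.3.3. SE is the absolute log2 fold change divided by the square root of F. Sums of rows replaced their parts in a fit across all rows. Shares were tested with exact permutation over libraries. No pair of libraries agreed within sampling noise (lowest chi-square per degree of freedom 31.2). DESeq2 1.42.0 and limma 3.58.1 were alternatives, with other minimums, scalings and left-out libraries. The main edgeR fit was tested on simulated data, and the other steps were not. Intervals of counting error were not needed, and the floor of 3 counts covers counting error only.

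Named genes were TFAM, the 9 genes, other aldo-keto reductase rows that were tested, in each list up to 4 called genes with the smallest p or else the 2 most abundant, and the 3 rows most like the most abundant member. Further genes, among them SORD, KHK and TKFC, were added after their values were seen. The lists were the other aldo-keto reductases, the NRF2 pathway and targets, NADPH supply, aldehyde dehydrogenases, alcohol dehydrogenases, short-chain carbonyl reductases, the polyol pathway and fructose use, steroid metabolism, prostaglandin metabolism, hepatocyte markers and markers of other liver cells. PTGR1 and CBR1 are on 2 lists each. Coding identities came from global alignments with Biopython 1.88 of 1 GENCODE 29 transcript per gene, without the stop codon. In all aligned identities, gap positions counted as differences. Figures were drawn with matplotlib 3.10.9.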

Additional observations from a re-analysis of the deposited data

How the results depend on the processing

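AKR1C3 and the sum of the 4 AKR1C rows kept their direction and call in each alternative run for them (edgeR adjusted p up to 0.0188 for the gene, log2 fold change 1.74 to 2.01 for the sum with 1 library left out). Of the 9 genes, the 2 higher calls became 1 with limma on log2(FPKM + 1) or log2(FPKM + 0.1) and 1 to 2 with 1 library left out, and the 1 lower call became 0 with both libraries numbered 3 left out and 0 to 1 with 1 left out. A minimum of 5 FPKM removed all called members (0 higher, 0 lower). With 1 library left out, AKR1C1 with AKR1C2 ranged from 1.23 to 1.61, AKR1B10 with AKR1B15 from -1.07 to -0.71 (-0.74 with both libraries numbered 3 left out), and AKR7A2 with AKR7A3 and AKR7L from -0.28 to -0.10. The sums' alternatives were chosen after seeing the data. In FPKM in place of counts, the share of the 9 genes moved by 3.29 percentage points for the AKR1C rows (5.11 in counts) and by -2.16 for AKR1B10 (-1.30). Over all rows, 1661 higher and 969 lower calls became 1353 and 1266 with library totals, 1387 and 1339 with upper quartile factors, 1198 and 1771 with totals outside mitochondrial DNA and 2173 and 1677 with DESeq2. The higher calls were 1020 at a minimum of 5 FPKM and 852 to 1338 with 1 library left out (lowest without shCtrl 2), the lower calls 318 to 755. Totals outside mitochondrial DNA moved the median of all rows to -0.15. Signs turned for AKR1A1 (library totals -0.031, upper quartile -0.025, outside mitochondrial DNA -0.090, limma -0.036 and -0.037, both libraries numbered 3 left out -0.0055, 1 left out -0.036, -0.034 and -0.00043, up to 0.13), ADH5 (-0.020 at 5 FPKM, -0.066, -0.054, -0.12, -0.060 and -0.062 in the same order of scalings and limma, 1 left out -0.075 and -0.036), AKR1B15 (1 left out 0.054, 0.12 and 0.14, down to -0.46) and KCNAB2 (1 left out 0.018 and 0.019, down to -0.52, both 0.062), NQO1 (both 0.0025) and COL1A1 (outside mitochondrial DNA -0.048, both -0.21, 1 left out -0.11 to 0.21), none of them called in any alternative. Apart from left-out libraries, calls were also lost with no minimum for TFAM, ALDH3A1, DCXR and HSD17B6, with edgeR's own filter for DCXR, with no abundance trend for TFAM and ALDH2, with library totals for ALDH3A1, with totals outside mitochondrial DNA for ALDH2 and ALDH3A1, with limma on log2(FPKM + 0.1) for ALDH2, and with limma on log2(FPKM + 1) or limma-voom for PTGS1. GCLM was not called with library totals, upper quartile factors or totals outside mitochondrial DNA, with no minimum, with no abundance trend or with limma on FPKM, and LUM was called with DESeq2 and with both libraries numbered 3 left out. Causes were not tested. Low counts limit AKR1C4, while AKR1C2 was left out by the FPKM minimum. With edgeR's own filter AKR1C2 was tested and not called (log2 fold change 0.22, edgeR adjusted p = 0.854). The 3 libraries a group limit every permutation p to 0.1 or above. No paired analysis was possible because the labels give the groups no shared replicate numbers, and the numbers 1 to 3 used here follow only the order of the samples within a group.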
